A study of Mus musculus with 4 samples.

Results

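Mt1 and Mt2 encode the metallothioneins that most mouse tissues make. They are 2 of the 27998 genes counted in all 4 libraries, and they were taken by their symbols. Both were selected on their measured UMI levels across the cell types and diets of these same libraries, so every level and diet difference of Mt1 and Mt2 is given as a description, with no test. The tests below are of other genes of metal and stress handling.

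The cells came from the livers of male wild-type C57BL/6 mice, 8 weeks old and of matched weight when bought, that then ate a normal control diet (NCD) or a diet without methionine and choline (MCD) for 6 weeks. The MCD diet is a standard way to give mice a fatty, inflamed liver. Each diet has 2 droplet single-cell RNA libraries, and the labels do not tell how many mice went into a library, so the tests measure the spread between these libraries, which may be technical. Live CD45+ Ly6G- cells with intermediate CD11b were sorted as monocyte-derived macrophages, with F4/80 stated as low in the series text and as high in the sample labels, and diet cannot be told apart from any preparation batch.

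Metallothioneins are small proteins rich in cysteine that bind zinc and copper and buffer the free metal of the cell. Zinc activates the transcription factor MTF-1, which binds metal response elements in the promoters of Mt1, Mt2 and the zinc exporter Slc30a1. Glucocorticoids, interleukin 6 through STAT3, and oxidative stress also raise metallothionein RNA, and the liver is the organ best known for this response.

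Both genes lie on the plus strand of mouse chromosome 8 (GRCm38, GENCODE M21). Mt2 (ENSMUSG00000031762) spans chr8:94172664-94173568, Mt1 (ENSMUSG00000031765) spans chr8:94179082-94180327, and 5513 bases separate them. Mt3 and Mt4, the family members best known from brain and from stratified epithelium, lie upstream of Mt2. The spliced Mt1 and Mt2 transcripts of 549 and 511 bases were 60.7% identical in alignment. Their longest shared run was 20 bases, and 10 bases in the last 100, the end that 3' libraries read. The 250 bases before each RefSeq start (GRCm38.p6) are printed here, since both genes are known to respond to zinc through metal response elements. They do not hold all cores near the genes: those in the annotated first exons lie outside the printed bases and are given below. Capitals mark the MRE core, searched on both strands as TGCACNC or TGCGCNC. The Mt1 window is chr8:94178839-94179088 and the Mt2 window is chr8:94172368-94172617, both on the plus strand.
Mt1: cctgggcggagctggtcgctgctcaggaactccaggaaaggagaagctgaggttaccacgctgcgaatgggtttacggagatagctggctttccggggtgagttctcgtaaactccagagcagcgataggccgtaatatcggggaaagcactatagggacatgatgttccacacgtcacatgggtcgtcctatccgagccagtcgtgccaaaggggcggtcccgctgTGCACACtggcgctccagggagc
Mt2: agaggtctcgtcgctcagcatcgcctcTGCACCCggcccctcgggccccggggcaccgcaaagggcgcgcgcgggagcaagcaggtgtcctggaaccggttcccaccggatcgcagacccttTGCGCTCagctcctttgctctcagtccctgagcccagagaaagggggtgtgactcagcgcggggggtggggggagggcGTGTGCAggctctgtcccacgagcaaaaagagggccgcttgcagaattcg
The Mt1 window held 1 MRE core, TGCACAC starting at base -23, and the Mt2 window held 3, TGCACCC at -223, TGCGCTC at -128 and GTGTGCA, a minus-strand match, at -50. At least 1 such core stood in 21.4% of 32851 mouse promoter windows of this length, and at least 3 in 1.26%. With the 50 bases after the start included, Mt1 had 3 cores and Mt2 had 4 (the added cores start 2 and 20 bases after the Mt1 start and 4 bases after that of Mt2), against at least 3 in 1.97% and at least 4 in 0.518% of all windows of 300 bases. GENCODE also annotates Mt1 starts 129 and 159 bases downstream of the first, and an Mt2 start 196 bases downstream. Counted back from the most downstream start, and so counting the 2 added Mt1 cores again, the first exon of Mt1 (257 bases) held cores at -150, -132, -68 and -54, and that of Mt2 (212 bases) held cores at -184, -165 and -131. An antioxidant response element core and a STAT site were searched only in the 250 bases before each RefSeq start, and not past it. There the antioxidant response element core, TGACNNNGC on either strand, matched once, in Mt2 at -79, and overlapped no MRE core. It stood in 10.2% of the promoter windows of 250 bases. A STAT site spelled TTCNNNGAA matched neither window and stood in 7.02% of them. These are matches of letters, and binding was not measured.

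**Figure D1:**
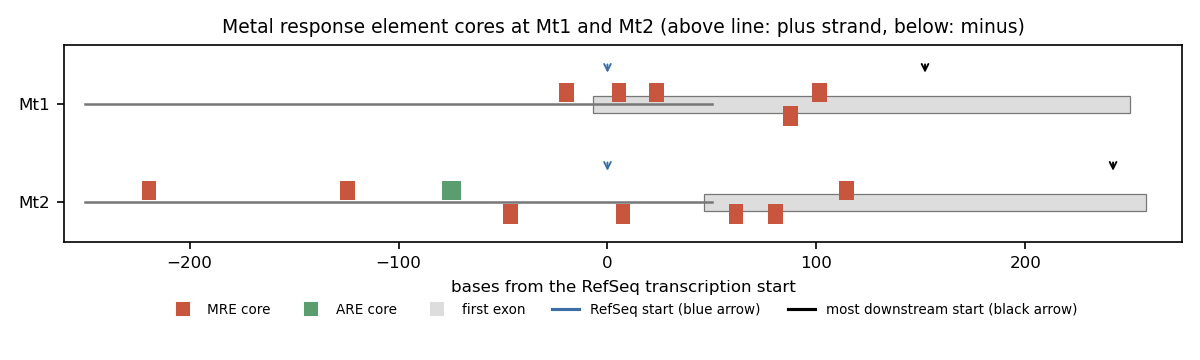
Positions of MRE cores (red) and the ARE core (green) along Mt1 and Mt2, in bases from the RefSeq start; marks above the line are on the plus strand and marks below on the minus strand, grey boxes are the first exon, and arrows are the RefSeq start (blue) and the most downstream GENCODE start (black). The Mt1 cores sit within 150 bases of its most downstream start, apart from the core at -23 of the RefSeq start, and the Mt2 cores are spread more widely.

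After filtering, 9599 cells remained, 1732 and 1784 on NCD and 2947 and 3136 on MCD. The libraries separated by diet in quality as well: the median cell held 2170 and 2252.5 unique molecules (UMIs) on NCD and 12045 and 12300 on MCD, and mitochondrial genes took 7.47% and 7.41% against 3.63% and 3.4% of UMIs. Levels are therefore given as CPM, the UMIs of a gene per 1000000 UMIs of the same cells, and their intervals are 95% exact Poisson intervals that cover counting error only. Clusters were built without the metallothionein genes and named from fixed marker lists, so each class name means cells like that type. Although the sort was for CD45+ cells, clusters that carried liver sinusoidal endothelial markers held 597 NCD and 344 MCD cells. Pairs of libraries shared 44 cell barcodes in all, and 18 kept barcodes were seen in 2 or more libraries. Different clusters held most cells of a class on the 2 diets in every class tested but eosinophils: clusters 2 and 0 for Ly6Chi monocytes, 9 and 8 for Ly6Clo monocytes, 17 and 7 for C1q macrophages, 6 and 4 for cDC2, 22 and 12 for migratory dendritic cells, 15 and 24 for NK cells, and 5 against 11 and 19 for endothelial cells, NCD first.

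Mt1 was the main metallothionein of these cells and stood higher on MCD in monocytes, macrophages, dendritic cells and endothelial cells. With all monocyte and macrophage cells summed, Mt1 was at 74.4 and 103 CPM in the NCD libraries and at 342 and 462 CPM in the MCD libraries, from 114, 161, 5625 and 7834 UMIs. Both MCD libraries were above both NCD libraries. The means were 88.6 ± 20.1 CPM on NCD and 402 ± 84.8 CPM on MCD (SD, n = 2 each), a 4.54-fold ratio. The fitted log2 fold change was 1.82 ± 0.18 (SE), measured against a typical gene rather than against the UMI total. In this comparison 38.4% of the 10933 genes tested passed an adjusted p of 0.05, 20.2% higher and 18.2% lower on MCD. Scaling by library totals moved the median of all genes from 0.02 to 0.39 and gave Mt1 a log2 fold change of 2.18. Giving the classes equal weight gave 1.36.

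Ly6Chi monocytes, the inflammatory cells that enter the liver from blood, had 78.0 and 105 CPM of Mt1 on NCD and 413 and 559 CPM on MCD. The 4 counting intervals, 60.8 to 98.5, 86.0 to 128, 400 to 426 and 544 to 574 CPM, did not overlap between diets, and the means of 91.7 ± 19.4 and 486 ± 103 CPM (SD, n = 2 each) differed 5.30-fold, a fitted log2 fold change of 1.93 ± 0.18 (SE). Ly6Clo monocytes, which patrol vessels, were the lowest of the monocyte and macrophage classes on both diets, with 33.2 and 73.4 CPM on NCD and 79.2 and 185 CPM on MCD. Here the lower MCD library was only just above the higher NCD library, and their counting intervals overlapped. The fitted log2 fold change, 1.04 ± 0.51. C1q macrophages, which make the first complement component, had the highest NCD level of the monocyte and macrophage classes, 159 and 179 CPM. They stood at 321 and 426 CPM on MCD, 2.22-fold higher, with a fitted log2 fold change of 1.01 ± 0.22. Lipid-associated macrophages numbered 137 cells on MCD and 1 on NCD, and on MCD had 284 and 418 CPM.

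Endothelial cells had the highest Mt1 level of all classes on MCD, 646 and 687 CPM, against 145 and 163 CPM on NCD. Their means of 154 ± 12.7 and 666 ± 28.7 CPM (SD, n = 2 each) differed 4.33-fold. Conventional dendritic cells of type 2 (cDC2) had 130 and 109 CPM on NCD and 300 and 426 CPM on MCD, 3.04-fold. Their fitted log2 fold change was 0.98 ± 0.19. Migratory dendritic cells had 43.5 and 20.6 CPM on NCD, from 5 UMIs in all, and 208 and 334 CPM on MCD. Their mean CPM was 8.45-fold higher on MCD. With both libraries of a diet pooled, the counting interval of the ratio ran from 3.37 to 24.4.

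Eosinophils gave 1 UMI of Mt1 in 156 NCD cells and 238 UMIs in 1276 MCD cells, 101 and 148 CPM. The ratio of mean CPM was 25-fold. With both libraries of a diet pooled, the counting interval of the ratio ran from 2.76 to 617. NK and innate lymphoid cells overlapped between diets, with 12.2 and 42.9 CPM on NCD and 9.38 and 44.3 CPM on MCD. Basophils gave no Mt1 UMI in 34 and 72 NCD cells, where 3 UMIs would be 67.1 and 29.9 CPM. In T cells of the MCD libraries Mt1 was at 338 and 61.0 CPM, and 49 of the 67 UMIs behind the first value came from 1 cell. B cells had 117 and 59.8 CPM on MCD.

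Clusters without a name followed the same pattern. A cluster of 805 MCD cells led by Marcksl1, Saa3 and Clec4e had 279 and 506 CPM of Mt1, and a cluster of 136 MCD cells led by Cxcl9 and Cxcl10 had 284 and 477 CPM. The NCD clusters led by Cxcl9 and Gbp2 and by Ifit1 and Isg15 had 83.4 and 130 CPM and 75.9 and 80.4 CPM. A cluster led by S100a8 and cell-cycle genes, the 1 unnamed cluster with at least 20 cells in every library, had 53.7 and 82.1 CPM on NCD and 141 and 346 CPM on MCD.

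Ordered by mean MCD level, Mt1 ran from endothelial cells (666 CPM) through Ly6Chi monocytes (486), C1q macrophages (374), cDC2 (363), lipid-associated macrophages (351), migratory dendritic cells (271), T cells (199.7), Ly6Clo monocytes (132), eosinophils (124) and B cells (88.4) to NK cells (26.8). Ly6Chi monocytes, C1q macrophages, cDC2, lipid-associated macrophages and migratory dendritic cells had ranges that overlapped with those of their neighbours, as did Ly6Clo monocytes, eosinophils and B cells. Within each MCD library, though, Ly6Chi monocytes stood above C1q macrophages. Their counting intervals were 400 to 426 against 302 to 340 CPM in replicate 1 and 544 to 574 against 404 to 449 CPM in replicate 2. In both libraries migratory dendritic cells stood below the other classes named first. The 2 T cell values, 61.0 and 338 CPM, were too far apart to place that class. MCD replicate 2 was above MCD replicate 1 in 9 of 11 classes. On NCD, replicate 2 was above in 5 and below in 3 of 9 classes.

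**Figure D2:**
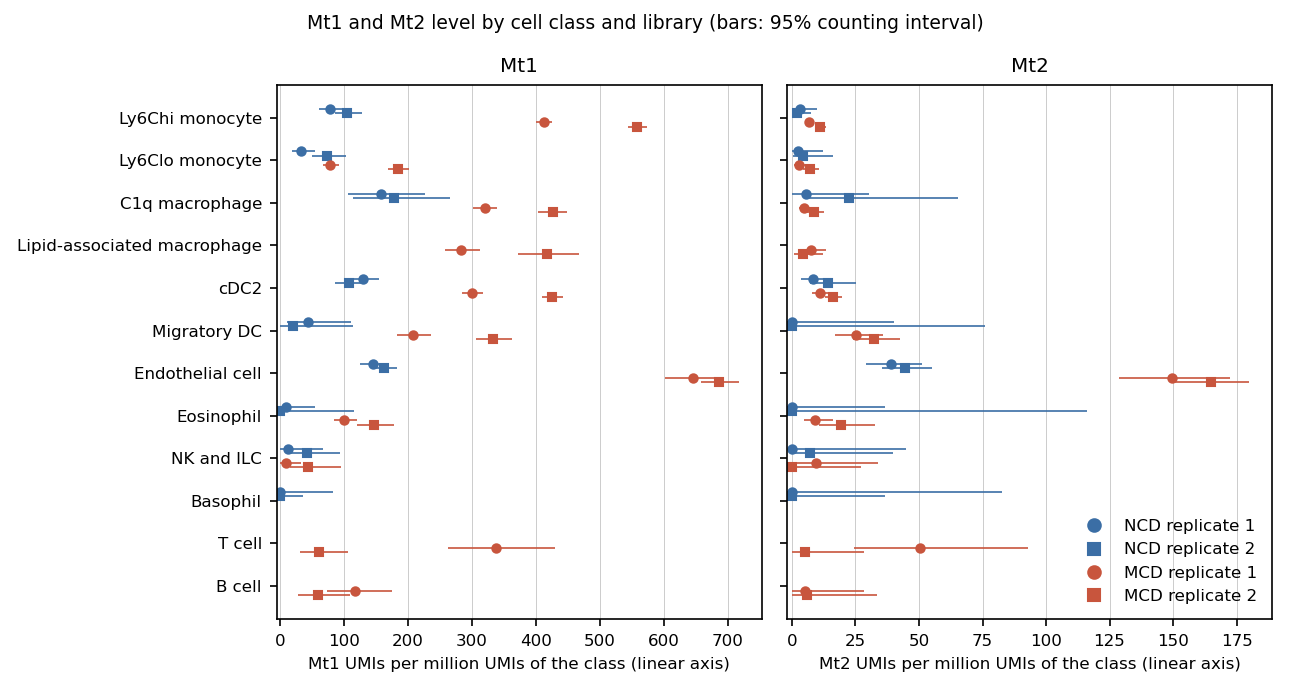
Mt1 (left) and Mt2 (right) UMIs per 1000000 UMIs of the class, by cell class; each point is 1 library with at least 20 cells of the class, and bars are 95% exact Poisson intervals. Mt1 sat higher in both MCD libraries in all 7 classes with cells on both diets other than NK cells, and Mt2 stood apart in endothelial cells, at 38.9 and 44.4 CPM on NCD and 150 and 165 CPM on MCD.

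Mt2 followed another order. Endothelial cells held 38.9 and 44.4 CPM of Mt2 on NCD and 150 and 165 CPM on MCD, a 3.77-fold ratio and a fitted log2 fold change of 1.81 ± 0.17. Ly6Chi monocytes held 3.34 and 2.05 CPM on NCD, from 5 UMIs in all, and 6.86 and 11.2 CPM on MCD. In monocytes and macrophages together Mt2 was at 3.26 and 4.47 CPM on NCD and 5.96 and 9.67 CPM on MCD. Its fitted log2 fold change there was 0.65 ± 0.49, and -0.28 with equal weight to each class. C1q macrophages gave 5.47 and 22.3 CPM on NCD, from 4 UMIs, and 4.79 and 8.66 CPM on MCD, and cDC2 gave 8.24 and 14.1 CPM on NCD and 10.8 and 16.2 CPM on MCD. Neither class separated the diets.

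Migratory dendritic cells gave no Mt2 UMI on NCD and 25.01 and 32.3 CPM on MCD, at least 1.34-fold higher when 3 UMIs over both NCD libraries are taken as the floor. Eosinophils gave no Mt2 UMI on NCD and 9.20 and 19.5 CPM on MCD, and the same floor is higher than their MCD mean of 14.3 CPM, so no fold is given. NK cells had 2 Mt2 UMIs in the first MCD library, 9.38 CPM with an interval from 1.14 to 33.9, and none in the second. That second library allows up to 27.2 CPM. The Mt2 levels of monocytes, macrophages and cDC2 on MCD, 2.59 to 16.2 CPM, lay under both upper limits, so at this depth they could not be set apart from the level in NK cells. Migratory dendritic cells, at 32.3 CPM in the second library, lay above its NK limit of 27.2 CPM, though their own interval of 24.1 to 42.4 CPM reached under it.

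The share of Mt2 among all Mt1 and Mt2 UMIs set endothelial cells apart from monocytes, macrophages and cDC2 on both diets. In endothelial cells it was 21.2% and 21.4% on NCD and 18.8% and 19.4% on MCD, 19.5% over 4197 UMIs (95% exact binomial interval 18.3% to 20.7%). On MCD it was 1.83% in Ly6Chi monocytes (1.57% to 2.11%), 1.76% in C1q macrophages (1.28% to 2.34%) and 1.90% in lipid-associated macrophages (1.04% to 3.16%), with overlapping intervals, and 3.60% in cDC2 (3.06% to 4.21%). On NCD it was 2.81% in Ly6Chi monocytes (0.918% to 6.43%), 7.02% in C1q macrophages (1.95% to 17.0%) and 8.26% in cDC2 (5.05% to 12.6%), from 178, 57 and 230 UMIs, and these intervals overlapped. Migratory dendritic cells and eosinophils of the MCD libraries had 9.43% and 9.85%. The intervals treat UMIs as independent, which UMIs of the same cell are not.

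**Figure D3:**
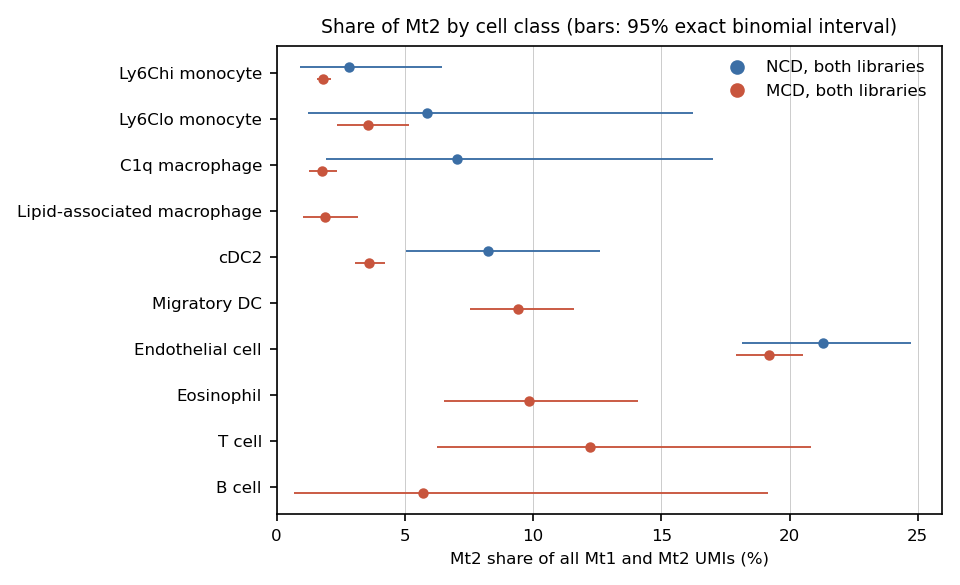
Mt2 UMIs as a percentage of Mt1 and Mt2 UMIs together, by cell class and diet, with both libraries of a diet pooled and 95% exact binomial intervals; classes with under 20 such UMIs on a diet are left out for that diet. Endothelial cells sit at 21.3% and 19.2%, and Ly6Chi monocytes of the MCD libraries at 1.83%.

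The rest of the family was near absent. Mt3 gave 3, 1, 6 and 1 UMIs over all barcodes of the 4 libraries, NCD first, and Mt4 gave none.

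Mt1 was uneven from cell to cell. Among Ly6Chi monocytes of the MCD libraries the median cell held 1 and 2 UMIs and the highest cell 77 and 116, and the 10% of cells with most held 58.9% and 52.4% of all Mt1 UMIs. Their coefficient of variation, 1.89 and 1.67, was above that of 97.2% and 97.6% of genes with a mean within 25% of Mt1's, whose median was 0.57 and 0.54. Single cDC2 of the MCD libraries reached 142 and 186 UMIs. Endothelial cells had medians of 5 and 6 UMIs, 34.9% and 33.8% of UMIs in the top 10% of cells, and lower coefficients of variation, 0.88 and 1.31. Against genes of like mean these were above 63.3% and 94.2% of genes, so for its level Mt1 was uneven in the second library there as well. Doublets may be among the highest cells, since the doublet caller marked 10 of 9609 barcodes, 0.104%, and has not worked here.

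With each cell thinned to 1000 UMIs, 7.28% and 9.11% of Ly6Chi monocytes on NCD and 22.9% and 28.4% on MCD held an Mt1 UMI, after 5 and 2 NCD cells and 1 and 4 MCD cells with fewer UMIs were left out. Unthinned, at median depths of 1977 and 2014 against 13535 and 12660 UMIs, the shares were 11.8% and 16.6% against 61.3% and 66.5%. Endothelial cells thinned alike held an Mt1 UMI in 17.1% and 16.6% of cells on NCD and 35.4% and 51.9% on MCD, and an Mt2 UMI in 4.27% and 4.02% against 16.2% and 17.3%. NK cells, the class with least Mt1 on MCD, had 0 of 38 and 2 of 62 thinned cells on NCD and 1 of 29 and 1 of 24 on MCD with an Mt1 UMI. Their shares, 3.45% and 4.17% on MCD, lay under those of the Ly6Chi monocytes. Of the thinned Ly6Chi monocytes on MCD, 0.715% and 1.13% held an Mt2 UMI, a share that NK cells, with 0 of 29 and 0 of 24, allow up to 10.3% and 12.5%.

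**Figure D4:**
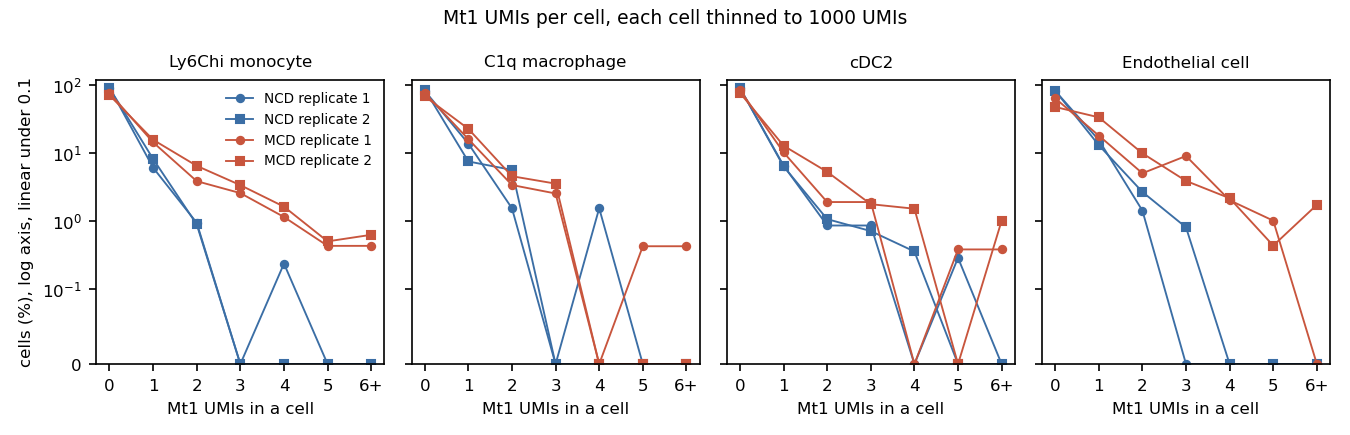
Share of cells (percent, log axis that is linear under 0.1) by the number of Mt1 UMIs in the cell, in 4 classes, each cell thinned to 1000 UMIs; lines are libraries, blue for NCD and red for MCD, with circles for replicate 1 and squares for replicate 2. The MCD lines run out to 6 or more UMIs in Ly6Chi monocytes, where 77.1% and 71.6% of MCD cells hold none.

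Markers of other cells were measured beside these levels. The 14 endothelial genes summed to 376 and 407 CPM in the NCD monocytes and macrophages and to 338 and 297 CPM in those on MCD, against 8815 to 14383 CPM in endothelial cells. The 21 hepatocyte genes summed to 148 and 148 CPM on NCD and to 257 and 274 CPM on MCD, with 17, 11, 20 and 20 of them detected. Transferrin (Trf) alone gave 73.8 and 75.4 CPM against 205 and 224 CPM, and without it the sums were 73.8 and 72.2 CPM against 52.0 and 49.7 CPM. Albumin, the defining hepatocyte RNA, was at 2.61 to 5.72 CPM in every library. Among cells at or under their library's median of hepatocyte UMIs, the fitted Mt1 log2 fold change was 1.57. The 8 erythroid genes summed to 3.92, 107, 114 and 612 CPM, higher in replicate 2 of each diet. The 8 cholangiocyte genes, which include the macrophage gene Spp1, summed to 8.49 and 7.67 CPM on NCD and 125 and 46.1 CPM on MCD, with Krt19 and Sox9 at 0 in all libraries, and the 11 stellate cell and fibroblast genes to 9.14 and 7.67 CPM and to 31.4 and 25.2 CPM. Macrophage genes were higher on MCD inside other classes too. In Ly6Chi monocytes the 12 C1q macrophage genes summed to 1342 and 1332 CPM on NCD and 4727 and 5182 CPM on MCD, and the 12 lipid-associated macrophage genes to 950 and 912 CPM and to 2908 and 3009 CPM. In endothelial cells the C1q macrophage genes summed to 2839 and 3130 CPM on NCD and 4724 and 5585 CPM on MCD. Monocyte genes were found there too: the Ly6Chi list summed to 3648 and 3441 CPM on NCD and 4377 and 4137 CPM on MCD. The Ly6Clo list summed to 3796 and 4044 CPM and to 2782 and 2771 CPM. In Ly6Chi monocytes these 2 lists summed to 10298 to 12215 CPM and 1825 to 2179 CPM. The part of these other cells in the Mt1 and Mt2 levels was not tested.

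The zinc genes were read next, since zinc acting through MTF-1 is the textbook control of Mt1 and Mt2. All tests were edgeR's quasi-likelihood test on UMIs summed per library, with Benjamini-Hochberg adjustment over all genes. Of the 7 genes of the MTF-1 list (Mtf1 and its textbook targets), 4 rose on MCD and 3 did not pass, where 20.2% of all genes rose. The median log2 fold change was 0.60 against 0.02 for all genes. Within single classes fewer passed: 1 of the 7 rose in Ly6Chi monocytes, 2 in Ly6Clo monocytes and 1 in C1q macrophages. Of all genes 15.5%, 11.8% and 8.01% rose there. The list medians in these classes were 0.55, 0.90 and 1.17, against 0.04, 0.02 and 0.16 for all genes. Slc30a1, the exporter that moves zinc out of the cell and the best known MTF-1 target after the metallothioneins, was at 22.2 and 19.2 CPM on NCD and 42.4 and 38.5 CPM on MCD. It rose by a log2 fold change of 0.60 ± 0.17 (adjusted p = 0.0189, 2 of 2 MCD libraries above both NCD libraries). Within classes Slc30a1 did not pass: it was at -0.26 ± 0.25 in Ly6Chi monocytes (adjusted p = 0.462), 0.90 ± 0.37 in Ly6Clo monocytes (0.101) and 1.23 ± 0.42 in C1q macrophages (0.0628). The call was also lost with DESeq2, with no filter on low counts, at a cluster resolution of 0.5 (log2 fold change 0.19), without the lipid-associated macrophages (0.46), and without NCD replicate 1 or 2 (0.76 and 0.49, adjusted p = 0.0691 and 0.143). Where 1 library of a diet is left out, the remaining one is assumed to vary like the others.

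Mtf1 itself, the zinc sensor, was at 16.3 and 15.3 CPM on NCD and 24.0 and 23.2 CPM on MCD, a fitted log2 fold change of 0.21 ± 0.19 (adjusted p = 0.424). Sepw1, a selenoprotein also called Selenow, rose from 84.2 and 75.4 CPM to 195 and 216 CPM (log2 fold change 1.0 ± 0.12, adjusted p = 0.000179), and this call held in all 15 alternatives. Sepw1 also rose in 7 of the 8 classes tested, all but eosinophils. The shares of all genes that rose were 15.5% in Ly6Chi monocytes, 11.8% in Ly6Clo monocytes, 8.01% in C1q macrophages, 15.1% in cDC2, 5.68% in migratory dendritic cells, 16.8% in endothelial cells, 8.44% in NK cells and 2.04% in eosinophils. 2700094K13Rik, also called Selenoh, rose from 13.1 and 17.9 CPM to 36.4 and 36.0 CPM (0.86 ± 0.19, adjusted p = 0.00514), and lost the call without NCD replicate 1 (0.69, adjusted p = 0.0726). Ndrg1, a stress gene, rose from 16.3 and 23.6 CPM to 36.3 and 46.3 CPM (0.69 ± 0.22, adjusted p = 0.0341), a call lost in 8 of 15 alternatives, among them those without NCD replicate 1, NCD replicate 2 or MCD replicate 2 (0.49, 0.97 and 0.44). The importer Slc39a10, which zinc represses through MTF-1, was at -0.40 ± 0.26 (adjusted p = 0.247), and the mitochondrial thioredoxin reductase Txnrd2 at 0.20 ± 0.28 (adjusted p = 0.596). In endothelial cells, where 30.8% of 9534 genes passed, 16.8% higher and 14.0% lower, the same 7 genes gave 4 that rose and 1 that fell. Slc39a10 fell there (log2 fold change -1.11 ± 0.33, adjusted p = 0.0211).

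Among the zinc exporters of the Slc30 family, 6 of 10 could be tested and Slc30a1 was the 1 that passed, where 38.4% of all genes passed. Slc30a5, Slc30a7 and Slc30a9, which load zinc into the secretory pathway or act elsewhere in the cell, were at 0.01 ± 0.17, -0.10 ± 0.18 and 0.07 ± 0.18. Of the 14 importers of the Slc39 family, 10 could be tested, 4 rose and 1 fell, against 20.2% and 18.2% of all genes. Slc39a7, which releases zinc from the endoplasmic reticulum, rose from 20.2 and 17.9 CPM to 65.9 and 58.2 CPM (log2 fold change 1.34 ± 0.17, adjusted p = 0.000205), held in all 15 alternatives, and also rose in Ly6Chi monocytes, Ly6Clo monocytes and cDC2. Slc39a14, an importer of zinc and iron, rose from 1.96 and 1.92 CPM to 8.27 and 5.84 CPM (1.49 ± 0.51, adjusted p = 0.0429), a call lost in 7 of 14 alternatives, those without NCD replicate 1 or 2 included (adjusted p = 0.218 and 0.244). Slc39a3 rose by 2.30 ± 0.52 from 1.96 and 0.64 CPM (adjusted p = 0.00661), and Slc39a11 by 0.87 ± 0.27 (adjusted p = 0.0307). The call of Slc39a3 was lost without NCD replicate 2 (1.70, adjusted p = 0.0931), and that of Slc39a11 without NCD replicate 1, NCD replicate 2 or MCD replicate 1 (adjusted p = 0.237, 0.114 and 0.0723). Slc39a1, the importer with the highest CPM in both NCD libraries, fell from 68.5 and 79.9 CPM to 61.0 and 46.1 CPM (log2 fold change -0.84 ± 0.16, adjusted p = 0.00241), and lost the call without NCD replicate 1 or 2 (adjusted p = 0.0737 and 0.117).

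Of the 15 copper genes 13 could be tested, 1 rose, 4 fell and 8 did not pass, where 20.2% of all genes rose and 18.2% fell. Cox17, which carries copper to cytochrome c oxidase, fell from 285 and 303 CPM to 127 and 127 CPM (log2 fold change -1.58 ± 0.09, adjusted p = 2.07e-06), and Sod1, the copper and zinc superoxide dismutase, fell from 241 and 242 CPM to 150 and 146 CPM (-1.07 ± 0.09, adjusted p = 2.06e-05). Both held in all 15 alternatives. Atox1, the chaperone for the copper ATPases, was at 696 and 623 CPM on NCD and 637 and 589 CPM on MCD and was called lower by 0.47 on the log2 scale (log2 fold change -0.47 ± 0.10, adjusted p = 0.00428). Ccs, which loads copper into Sod1, rose from 9.79 and 10.2 CPM to 27.1 and 27.0 CPM (1.07 ± 0.21, adjusted p = 0.00287). Ceruloplasmin (Cp) fell from 2.61 and 1.92 CPM to 0.30 and 0.35 CPM (-3.09 ± 0.71, adjusted p = 0.00727). Without NCD replicate 1 the calls of Atox1 and Ccs were lost (adjusted p = 0.0704 and 0.0508), and without NCD replicate 2 those of Ccs and Cp (0.0524 and 0.0699). Library-total scaling also ended the call of Atox1. Over the metal-handling lists together, 34 of 44 genes could be tested, 9 rose and 5 fell, which is near the 20.2% and 18.2% of all genes. Without NCD replicate 1 the counts were 3 and 2, without NCD replicate 2 they were 3 and 3, and DESeq2 gave 5 higher.

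**Figure D5:**
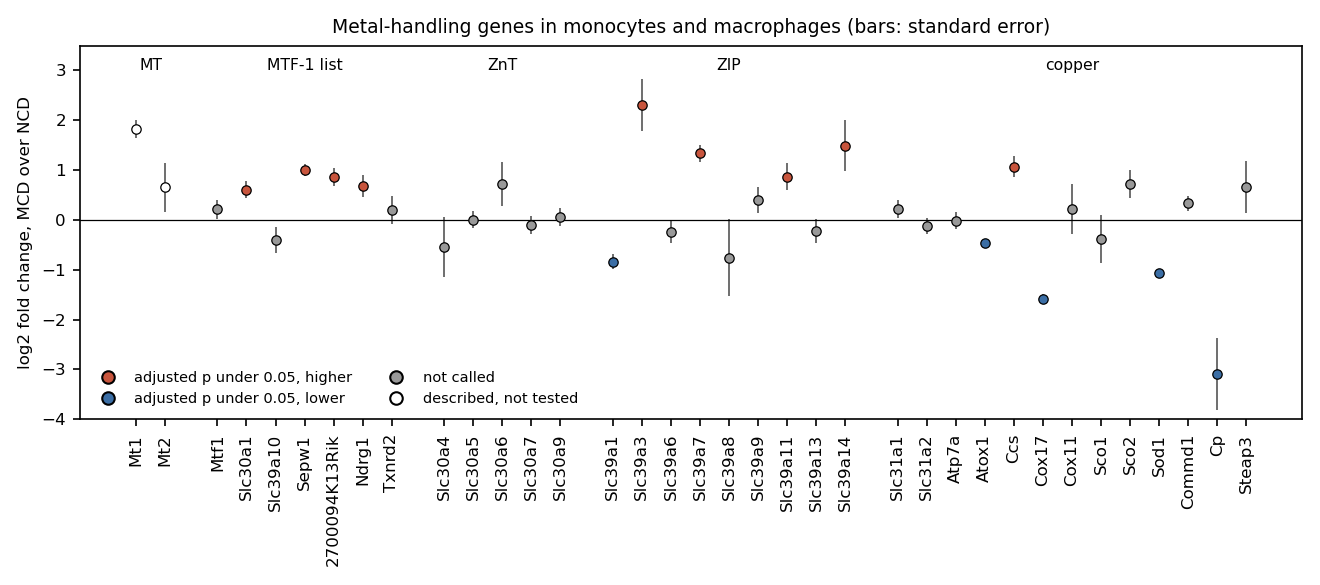
Log2 fold change, MCD over NCD, in monocytes and macrophages for the metallothioneins (open, not tested), MTF-1 and its targets, zinc exporters (ZnT), zinc importers (ZIP) and copper genes that had enough counts; bars are standard errors over 2 libraries per diet, red and blue pass an adjusted p of 0.05. Mt1 sits at 1.82, above the 4 MTF-1 list genes that passed (0.60 to 1.0), and Cox17 and Sod1 lie below 0.

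Other known inducers of metallothionein were read from lists that hold target genes and also genes of the inducing pathway itself, such as receptors and regulators. Beside each count stand the 20.2% of all genes that rose and the 18.2% that fell. In the list for interleukin 6 and STAT3, 16 of 18 genes could be tested, 10 rose and 1 fell, with a median log2 fold change of 0.71. Socs3, the feedback inhibitor that STAT3 induces, rose from 102 and 82.4 CPM to 457 and 441 CPM (log2 fold change 1.91 ± 0.12, adjusted p = 3.68e-06). It also rose in Ly6Chi monocytes (2.03 ± 0.15), Ly6Clo monocytes (1.46 ± 0.15), C1q macrophages (2.26 ± 0.32), cDC2 (1.99 ± 0.17), eosinophils (1.97 ± 0.52) and endothelial cells (1.38 ± 0.17). Il4ra, a cytokine receptor chain, rose by 1.95 ± 0.16 (adjusted p = 1.73e-05) and Bcl3 by 0.86 ± 0.15 (adjusted p = 0.00133), the latter call lost without NCD replicate 1 (adjusted p = 0.0507). The largest change on that list was in Lcn2, a neutrophil and acute-phase gene, at 1.96 and 0.64 CPM on NCD and 45.7 and 22.2 CPM on MCD (4.33 ± 0.75, adjusted p = 0.00151), a call lost without NCD replicate 1 or 2 (adjusted p = 0.114 and 0.140). Lcn2 was at 0.20 at a cluster resolution of 0.5 and at 0.13 when clusters were built with the metallothionein genes, and was not called in either. Il6 itself was at 6.53 and 18.5 CPM on NCD and 7.60 and 26.4 CPM on MCD, and its receptor chain Il6ra at 0.01 ± 0.09 on the log2 scale. The 1 gene of the list that fell was the other receptor chain, Il6st (-0.45 ± 0.15, adjusted p = 0.0367). That call was lost in 6 of 15 alternatives, among them those without NCD replicate 1 or 2 (-0.59 and -0.26).

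Of 16 genes tested on the list of the glucocorticoid receptor and its targets 3 rose and 7 fell. Beside the 20.2% and 18.2% of all genes, the number that rose was near the background and the number that fell was above it. The median log2 fold change was -0.30, against 0.02 for all genes. Of the 10 calls on this list, 3 held in all alternatives. Ddit4, a stress gene that glucocorticoids induce, fell from 70.5 and 111 CPM to 44.9 and 40.0 CPM (log2 fold change -1.46 ± 0.17, adjusted p = 0.00014). The scavenger receptor Cd163 fell by 3.52 on the log2 scale (adjusted p = 0.000636), while the decoy receptor Il1r2 rose by 1.09 ± 0.24 (adjusted p = 0.00596) and the NF-kappaB inhibitor Nfkbia by 0.98 ± 0.19 (adjusted p = 0.00249). Without NCD replicate 1 the calls of Cd163, Il1r2 and Nfkbia were lost (adjusted p = 0.0579, 0.0798 and 0.0872), and so they were without NCD replicate 2 (0.0507, 0.110 and 0.148).

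The list for NRF2, the factor of oxidative stress, holds Nfe2l2 and Keap1 beside targets. With monocytes and macrophages summed, it gave the largest share of risers among these lists. There 13 of 15 rose, against 20.2% of all genes, with a median of 1.35. Slc7a11, the cystine importer, rose from 30.02 and 41.5 CPM to 238 and 168 CPM (log2 fold change 2.14 ± 0.20, adjusted p = 3.4e-05), and the haem-degrading Hmox1 from 103 and 150 CPM to 469 and 478 CPM (1.54 ± 0.13, adjusted p = 2.31e-05). Ftl1, Txnrd1 and Sqstm1 rose by 2.70 ± 0.10, 1.55 ± 0.17 and 1.35 ± 0.11, and these 5 calls held in all 15 alternatives. Srxn1, Osgin1, Gclm, Prdx1, Keap1, Gsr and Nfe2l2 also passed, at 0.41 to 3.39, and each lost its call without NCD replicate 1, without NCD replicate 2 or without either (adjusted p = 0.0508 to 0.131). Prdx1 was at 0.16 without the lipid-associated macrophages. Nqo1 had no UMI on NCD and 61 and 41 UMIs on MCD, at least 3.16-fold higher against a floor of 3 UMIs over both NCD libraries, a call lost without either of them (adjusted p = 0.136 and 0.144). Gclc and Fth1 did not pass (0.51 ± 0.26 and 0.22 ± 0.10). Within classes the NRF2 list gave 6 risers of 14 in Ly6Chi monocytes, 6 of 14 in Ly6Clo monocytes and 8 of 14 in C1q macrophages. Of all genes 15.5%, 11.8% and 8.01% rose there, and 1 gene of the list fell in Ly6Chi monocytes. In the 2 monocyte classes the list for interleukin 6 and STAT3 gave more risers, 9 of 16 and 9 of 14. Migratory dendritic cells gave 3 NRF2 risers of 13, cDC2 7 of 14, endothelial cells 11 of 15, eosinophils 6 of 12 and NK cells 1 of 6. Of all genes 5.68%, 15.1%, 16.8%, 2.04% and 8.44% rose there. In cDC2 and in NK cells 1 gene of the list fell.

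Of the hypoxia list 11 of 12 could be tested, 6 rose and 1 fell, against 20.2% and 18.2% of all genes. Vegfa rose from 19.6 and 24.3 CPM to 97.8 and 104 CPM (log2 fold change 1.84 ± 0.15, adjusted p = 1.69e-05), Slc2a1 from 13.7 and 14.7 CPM to 49.9 and 53.8 CPM, and Ldha by 1.04 ± 0.12. Ankrd37 (1.82 ± 0.45) and Pgk1 (0.65 ± 0.21) rose as well, both lost without NCD replicate 1 or 2 and Pgk1 also without MCD replicate 1 (adjusted p up to 0.266), and Ndrg1 is given above. P4ha1 fell (-0.55 ± 0.17, adjusted p = 0.0252), a call lost without NCD replicate 2 (-0.23, adjusted p = 0.393). Of 11 other thiol and zinc-buffer proteins tested, 6 rose and 2 fell, the latter share near the 18.2% of all genes. Gpx4, which reduces lipid peroxides, rose from 35.9 and 51.8 CPM to 368 and 406 CPM (2.78 ± 0.15, adjusted p = 1.51e-06). Gss, Sod2, Txn2, Glrx and Gpx1 rose by 1.53, 1.24, 0.76, 0.53 and 0.42, of which the calls of Glrx and Gpx1 were lost without NCD replicate 1 (adjusted p = 0.0829 and 0.0508), those of Txn2 and Glrx without NCD replicate 2 (0.0713 and 0.124), and that of Glrx without MCD replicate 1 (0.0575). Glrx2 fell by 1.23 on the log2 scale (adjusted p = 6.79e-05), and Sod1 is given above. S100a8 and S100a9, zinc-binding proteins of neutrophils, were at 16.6 to 115 CPM and 19.2 to 75.1 CPM on NCD and at 40.4 to 47.1 CPM and 3.95 to 38.5 CPM on MCD, and did not pass. Within Ly6Chi monocytes, Ly6Clo monocytes and C1q macrophages the hypoxia list gave 2, 2 and 3 risers of 10 tested. The thiol and zinc-buffer list gave 5, 4 and 5 of 11. Of all genes 15.5%, 11.8% and 8.01% rose in these classes. Those that fell were 0, 1 and 0 on the hypoxia list and 3, 3 and 1 on the other.

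The genes whose level across cell classes was most like that of the Mt1 and Mt2 mean were Cyb5a (mean Pearson r = 0.80 over the 4 libraries), Bst2 (0.80), Fcgrt (0.80), Id3 (0.77), Nrp1 (0.77), Mbnl2 (0.76), Bmpr2 (0.74), App (0.74), Gatm (0.73) and Sdc3 (0.73), of 2809 genes compared over 9 classes on NCD and 11 on MCD. The classes of a library share its depth and preparation, so these r values are a description. Mt1 and Mt2 themselves had r = 0.67 and 0.77 across classes on NCD and 0.50 and 0.56 on MCD. Among single cells, genes were ranked by r with Mt1 if found in at least 10% of the cells of each MCD library. In Ly6Chi monocytes of the MCD libraries, Socs3 had the highest r of 7097 such genes, 0.26 in 699 cells and 0.25 in 800 cells. Slc30a1 had 0.04 and -0.02. Mt2, found in 3.43% and 7.0% of these cells and so not ranked, had 0.26 and 0.20. Among single cDC2 of the MCD libraries Mgl2 ranked first of 7580 such genes (0.17 in 263 cells and 0.22 in 396 cells), and Socs3 had 0.095 and 0.29. Mt2, found in 4.94% and 10.9% of these cells and not ranked, had 0.36 and 0.41 there, above Mgl2. These are weak values in sparse counts, and the within-cell comparison was chosen after values had been seen.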

How the data were processed

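The authors deposited counts of UMIs for each gene and cell barcode. Per the submitters' processing notes these came from Cell Ranger and the mm10 build, and the file headers give version 3.0.2. Settings for calling cells were not found in the labels or headers. Barcodes needed 200 genes or more and no more than 10% of UMIs from mitochondrial genes, and their counts were scaled to 10000, log transformed, reduced to 2000 variable genes without Mt1 to Mt4, 30 components and 15 neighbours, and clustered by Leiden at resolution 1.0 (scanpy 1.11.5, leidenalg 0.10.2). Clusters were named from 24 marker lists, with at least 3 list genes in their top 50, and classes needed 20 cells in a library. Total counts per library were 7518597 and 7428431 on NCD and 32975974 and 37772284 on MCD. Summed UMIs were tested with edgeR 4.0.16 (TMM, filterByExpr, glmQLFit and glmQLFTest, Benjamini-Hochberg), with DESeq2 1.42.0 as an alternative. On simulated counts of the union of monocytes and macrophages (10933 genes), 54% of genes changed 2-fold and 80% of genes changed 4-fold were recovered, with 2 false calls. The members, the gene lists and the tests were chosen with earlier results of these data known. Genes were named by rule: both members in every class, all metallothioneins and all genes of the MTF-1 list, every passing gene of lists of up to 15 genes, the 4 largest passing changes of longer lists, and the 10 genes of highest r, from log2(CPM + 20), among genes of at least 50 CPM. Some genes that did not pass, and Il6st, are named besides.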

Additional observations from a re-analysis of the deposited data

Results flagged for a closer look

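Barcodes that the cell filters left out, most of them for a high mitochondrial share, also carried Mt1, and more of it on MCD. The 402 and 339 barcodes left out of the MCD libraries had 229.9 and 474.7 CPM of Mt1, above the 107.1 and 152.4 CPM of the 1051 and 915 left out on NCD. The kept cells of the same libraries had 313.7 and 461.7 CPM on MCD and 100.8 and 119.8 CPM on NCD. Mt2 in the barcodes left out was at 23.5 and 34.8 CPM on NCD and 49.5 and 48.6 CPM on MCD.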

How the results depend on the processing

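Mt1 stayed higher on MCD in the monocyte and macrophage union under every alternative run, at a fitted log2 fold change of 1.36 with equal weight to each class, 2.18 with library totals, and 1.53 to 2.06 with 1 library left out. Mt2 there turned to -0.28 with equal weight, and without MCD replicate 2 it had too few counts to be fitted. The values given next for NK cells and cDC2 are log2 ratios of mean CPM, which scale by UMI totals and were not fitted. Library totals put the median of all genes at 0.54 in NK cells and 0.67 in cDC2. Mt1 in NK cells, at -0.04, turned to 0.29 as a mean over cells and to 0.084 without the 1% of cells richest in it. It lay between -1.56 and 1.14 with 1 library left out. Mt2 in cDC2, at 0.27, turned to -0.14 with mitochondrial and ribosomal protein genes out of the total. It was at 1.42 without the 1% of cells richest in it, and lay between -0.062 and 0.71 with 1 library left out. The fitted change of Mertk turned to 0.77 in cells low in hepatocyte UMIs, and that of Glrx to -0.20 at resolution 0.5. The causes were not tested.

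Of 10933 genes 4200 were called, 2210 higher and 1990 lower. With no filter on low counts the numbers were 1975, 1183 and 792. With library totals, which moved the median log2 fold change of all genes from 0.02 to 0.39, 3875 were higher and 997 lower. Leaving out 1 library gave 1613 to 3862 calls, 875 to 1998 higher and 738 to 1864 lower, the fewest without either NCD library. Of the metal-handling genes, 9 rose and 5 fell in the reported fit. The number that rose was 5 with DESeq2, 4 with no filter, 14 with library totals and 3 to 8 with 1 library left out, and the number that fell was 3 with no filter and 2 to 4 with 1 library left out. Of 61 called genes on all lists, 24 held in all alternatives.

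Within classes DESeq2 called 1932 genes in Ly6Chi monocytes (edgeR 2990), 867 in Ly6Clo monocytes (1795), 1473 in cDC2 (2755), 321 in migratory dendritic cells (562), 1139 in endothelial cells (2941), 71 in eosinophils (161) and 173 in NK cells (446). Library totals gave 4587 in cDC2 and 692 in NK cells. With 1 library left out the numbers were 757 to 904 in C1q macrophages (1207 with all), 84 to 165 in eosinophils, 305 to 365 in migratory dendritic cells and 1782 to 2181 in cDC2.

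The replicate block was run because the labels number the libraries 1 and 2 in each diet. Same-numbered libraries did not deviate together (r = 0.026 over 10933 genes, 2 pairs), so they share only a number. With the block 4570 genes were called in the union and 363 in migratory dendritic cells, no other class count moved over 1.5 times, and Mt1 was at 1.82 and Mt2 at 0.66.

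The mean share of cells with a UMI moved with depth. Thinned to 2000 UMIs, and then unthinned, Mt1 in Ly6Chi monocytes was in 14.6% and 14.2% of NCD cells and 34.6% and 63.9% of MCD cells, and Mt2 in 0.462% and 0.569% and in 1.37% and 5.26%. In endothelial cells Mt1 was in 25.6% and 46.7% on NCD and 68.1% and 89.7% on MCD, and Mt2 in 8.61% and 17.6% and in 29.5% and 63.1%. The NCD libraries limit precision: Mt2 in their monocytes and macrophages rests on 12 UMIs.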
